A study of Rattus norvegicus with 8 samples.

Results

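Ddx6, Ago1 and Prpf8 are 3 genes that act on RNA after transcription, in decay, silencing and splicing, and they are described here in the adult rat medial prefrontal cortex after juvenile treatment with fluoxetine. They were chosen as every probe in the authors' lists of changed probes whose gene name, or current symbol through its gene ID, was one of these 3. The choice gave 4 probes of 3 genes, out of 582 listed probes that stand for 530 named genes, on an array with 15207 probes in the value table. All 4 probes come from the list of higher probes, so a higher value in the treated rats is what selected them and is given as a description, with no test.

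The treated group, named JFLX, received fluoxetine, a serotonin reuptake inhibitor, at 10 mg/kg between postnatal days 28 and 48. The control group, named JVeh in the titles, received the vehicle, a 5% sucrose solution, over those days. Whole medial prefrontal cortex was taken at 6 months of age, and total RNA of 4 samples per group was labelled with Cy3 and hybridised to a custom Agilent rat array. The labels give neither strain nor sex, and nothing in the labels says that the samples are separate animals, so errors measure only the spread between these samples. Free-text descriptions of control replicates 2 to 4 name fluoxetine, whereas their titles and source names say control, and the titles were followed. In whole tissue, more RNA per cell and more cells that hold the RNA cannot be told apart.

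A messenger RNA is cut from its precursor by the spliceosome, can be held silent in the cytoplasm by small RNAs bound to Argonaute proteins, and is destroyed after its cap is removed. Prpf8 is the large core protein of the U5 particle, at the catalytic centre of the spliceosome. Ago1 is an Argonaute that carries microRNAs to their target messages. Ddx6, a DEAD-box RNA helicase found in processing bodies, activates decapping and takes part in the repression of messages by microRNAs. In neurons such repression is known to hold messages silent in dendrites until they are used.

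The oligonucleotides that read Prpf8 and Ago1 are shown because each value below rests on 1 sequence per gene. Positions are as deposited, and no label or header names their genome build.
Prpf8 probe: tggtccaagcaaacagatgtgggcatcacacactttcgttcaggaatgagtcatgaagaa
Ago1 probe: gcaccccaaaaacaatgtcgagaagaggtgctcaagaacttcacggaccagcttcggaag
The Prpf8 probe is a run of 60 bases on chromosome 10 from 62835935 to 62835994, with 45.0% G and C, and 1 of its 3 forward reading frames holds no stop codon. That same oligonucleotide is spotted at 2 places on the array, so both Prpf8 values share a sequence and are technical repeats, not separate evidence for the gene. The Ago1 probe, also of 60 bases and 51.7% G and C, is placed on chromosome 5 between 145820064 and 145825466 with its ends in reverse order. Its 60 bases are thus spread over 5403 bases of the chromosome and are not contiguous there, and all 3 of its forward frames are open. The Ddx6 probe lies on chromosome 8 from 47615499 to 47615558, has 40.0% G and C, and has a stop codon in each of the 3 forward frames. Whether it lies in a coding or an untranslated exon was not analysed here.

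In the files the Ddx6 probe is named after a predicted gene similar to RCK, an older name of the helicase, and the Ago1 probe is named Eif2c1, an older name of the Argonaute. Their gene IDs give Ddx6 and Ago1 in the RefSeq table of the assembly GRCr8. The nearest other listed gene was Serpinf2, 73813 bases from the Prpf8 probe. For Ago1 it was Oscp1 at 374628 bases, and for Ddx6 it was Scn2b at 471025 bases. In the gene order of GRCr8, Ago1 stands between Ago3 and Ago4, which encode 2 other Argonautes, and neither is among the listed genes. Whether the Ago1 probe also matches their sequences was not checked.

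Values are log2 values normalized by the authors and centred on the control median of each probe, so they show differences between arrays and not the level of a gene. Ddx6 read 0.18, -0.15, 0.15 and -0.51 on control arrays 1 to 4, and 1.26, 1.29, 1.30 and 1.20 on JFLX arrays 1 to 4. All 4 JFLX arrays lay above all 4 control arrays, and control array 4 was the lowest of the 8. That array was the lowest control at 131 of the 322 probes in the higher list, so this is not particular to Ddx6. The mean difference was 1.35 ± 0.16 on the log2 scale (moderated SE, n = 4 per group), a 2.54-fold higher value in JFLX.

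The JFLX arrays were close together for this helicase. Their values spanned 0.09 on the log2 scale, against 0.68 over the control arrays. Of the 322 probes in the higher list, 3, including Ddx6 itself, had a JFLX span no wider than this, and the median span over that list was 0.42. The scatter of the Ddx6 comparison therefore came from the control side, where the SD was 0.32 against 0.04 in JFLX (n = 4 each). Without control replicate 4 the difference was 1.20.

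The deposited background-subtracted intensities of Ddx6, which are not adjusted between arrays and can be assigned only to a group, were 735, 1023, 1073 and 1194 in the control group. In the JFLX group they were 1379, 2511, 2541 and 2763. The groups did not overlap on this scale either, and 1 JFLX array stood below the other three. As a mean of log2 intensities the difference was 1.16, smaller than after the authors' normalization.

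Prpf8 showed a difference of similar size at both spots. The first spot read 0.14, 0.13, -0.13 and -0.26 on control arrays 1 to 4, and 1.15, 1.39, 1.34 and 1.26 on JFLX arrays 1 to 4. At the second spot the control arrays read 0.12, 0.25, -0.12 and -0.13, and the JFLX arrays 1.14, 1.61, 1.28 and 0.96. In neither spot did the groups overlap, and the gap between the lowest JFLX and the highest control array was 1.01 log2 units at the first and 0.71 at the second.

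The mean differences of the spliceosome gene were 1.32 ± 0.13 and 1.22 ± 0.16 on the log2 scale (moderated SE, n = 4 per group), which are 2.49-fold and 2.32-fold. Because the spots hold the same sequence, their disagreement shows spot error, carried by both spots. Each spot is centred on its own control median, so a constant offset between them is not seen. They differed by 0.11 log2 units on average over the 8 arrays and by 0.30 at most, on JFLX array 4. Among the 25 sequences that are listed more than once, with 59 spots in all, the median of this average was 0.10, and it ran from 0.06 to 0.57. Spot error at Prpf8 was thus near the middle of what these lists show, where only listed spots count. It covers the spotting alone and not the spread between samples.

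Intensities of Prpf8 were 20.8, 21.6, 28.8 and 32.3 in the control group and 35.5, 58.4, 66.7 and 70.3 in the JFLX group at the first spot. At the second spot they were 20.5, 22.9, 27.6 and 34.2 in the control group and 28.1, 56.5, 65.6 and 75.2 in the JFLX group. Before normalization the groups stayed apart at the first spot and overlapped at the second, through 1 JFLX array at 28.1. On this scale the differences were 1.13 and 1.04.

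Ago1 differed less and its JFLX arrays were uneven. It read -0.02, 0.04, -0.21 and 0.02 on control arrays 1 to 4, and 0.34, 0.37, 0.96 and 0.08 on JFLX arrays 1 to 4. The groups did not overlap, but the gap between JFLX array 4 and the highest control array was 0.04 log2 units. The mean difference was 0.48 ± 0.19 (moderated SE, n = 4 per group), a 1.40-fold higher value in JFLX.

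JFLX array 3 carried much of the Ago1 difference. Without it the difference was 0.31, and without JFLX array 4 it was 0.60. The SD of the Argonaute was 0.37 over the JFLX arrays and 0.12 over the control arrays. Its intensities were 11.4, 14.9, 15.1 and 17.5 in the control group and 9.06, 19.0, 19.2 and 31.3 in the JFLX group, so that before normalization the lowest value of all belonged to a JFLX array. The groups overlapped on that scale, with a difference of 0.30 in mean log2 intensity. That JFLX array was also the lowest of its group for Ddx6 and at both Prpf8 spots, so its low values are not particular to Ago1. All 4 probes were flagged as detected on all 4 arrays of both groups, as were 308 of the 322 probes in the higher list.

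**Figure D1:**
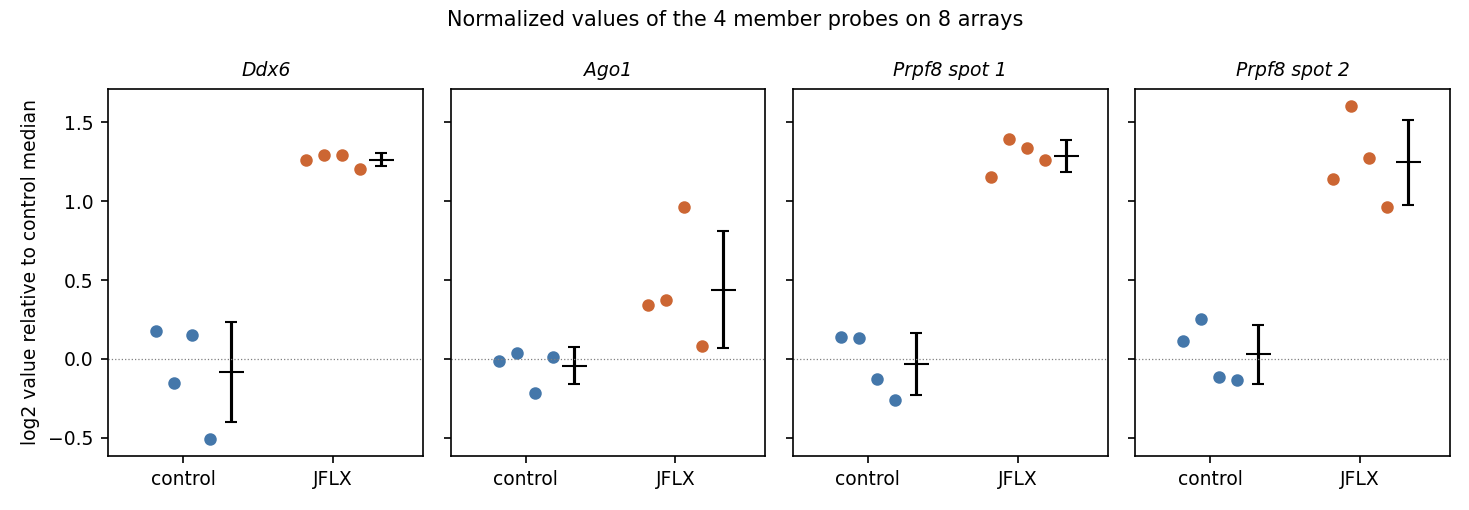
Normalized log2 values relative to the control median (vertical axis) of the Ddx6, Ago1 and 2 Prpf8 spots, with a point per array in replicate order from left to right and a bar for the mean ± SD of 4 arrays. Ddx6 and the first Prpf8 spot show JFLX points near 1.3, and those of the second Prpf8 spot run from 0.96 to 1.61. The Ago1 JFLX points run from 0.08 to 0.96 and nearly touch the control points.

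**Figure D2:**
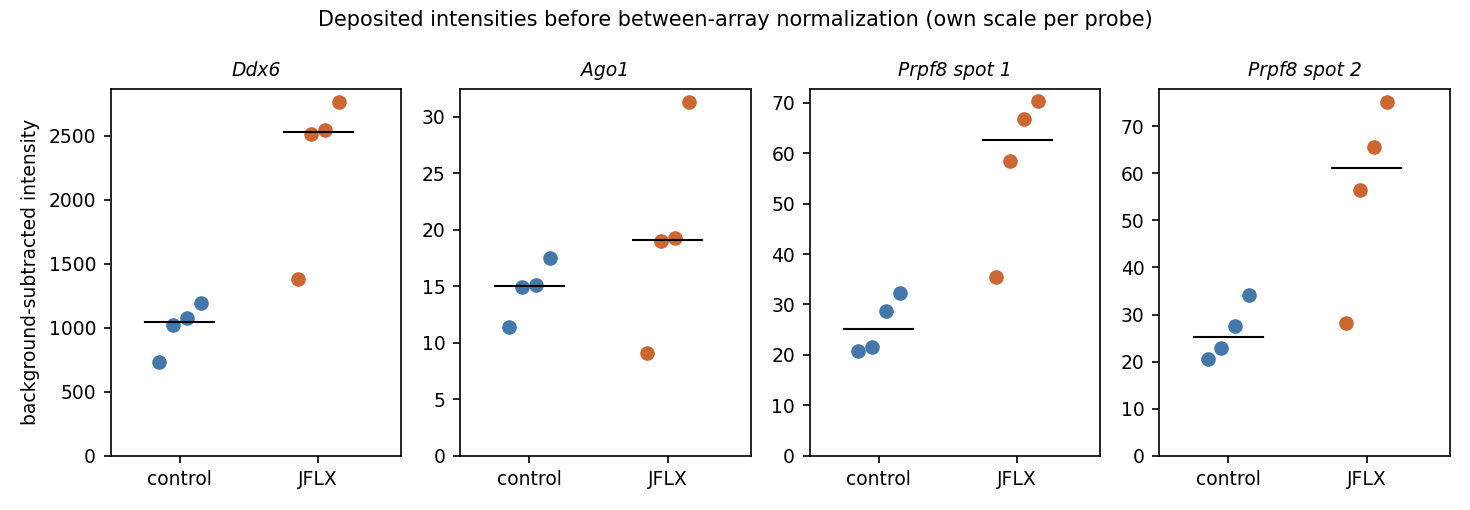
Background-subtracted linear intensity before normalization between arrays, with a panel and scale per probe, a point per array sorted by value and a line at the median of 4. The same JFLX array stands below the other 3 in all 4 panels, and the groups overlap through it for Ago1 and for the second Prpf8 spot.

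Per the read-me sheet, the higher list asks for a mean JFLX value of 0.4 or more, a p of 0.05 or less and a detection flag on enough JFLX arrays. Ago1 lies near both limits. In the authors' deposited table its mean JFLX value is 0.44 and its p is 0.0478; 42 of the 322 higher probes have a smaller mean and 8 a larger p. Just inside the limits of the authors' deposited table are a mean of 0.402 and a p of 0.0499. Among unlisted probes that met the p limit but had a mean under 0.4, the highest mean was 0.399. A high mean with a small p did not always put a probe on the list. The shared profile of 384 unlisted probes, described below, ran from 1.15 to 1.74 on the JFLX arrays. All 384 had an adjusted p of 0.05 or less in limma. Whether the detection flag kept them off the list was not tested. Ddx6 and Prpf8 are far inside both limits. Their p in the authors' deposited table is 0.000161 for Ddx6, and 2.19e-05 and 0.000315 for the Prpf8 spots.

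Set among all probes, the members were not the extreme. Ddx6 ranked 826, the Prpf8 spots 881 and 1000, and Ago1 2433 among 15207 differences sorted from the highest. Within the higher list the ranks were 6 for Ddx6, 7 and 12 for Prpf8 and 241 for Ago1. The median difference was 0.04 over all probes and 0.57 over the higher list. The ranks among all probes lie behind many unlisted probes. A set of 384 unlisted probes, described below, can make up only a part of these. The median difference of that set, 1.43, is above those of all 4 member probes.

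A fit with limma over all 15207 probes, with Benjamini-Hochberg adjustment, called 6.25% of them at an adjusted p of 0.05, and 26.5% of the 582 listed probes. Of the 3 members 2 were called, Ddx6 and Prpf8 (at both spots), and Ago1 was not. Both calls were lost with quantile normalization (limma, adjusted p = 0.101 and 0.0971), under which 0 probes of the array were called. The members were chosen from this contrast, so the count supports nothing. All JFLX arrays lay above all control arrays at 10.0% of the probes on the array, at 73.9% of the higher list and at all 4 member probes.

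The differences of Ddx6 and Prpf8 lie just below a bin of the distribution that holds an excess of probes. Between 1.4 and 1.5 on the log2 scale there were 371 probes, and 384 probes had nearly the same value on each array, within a root mean square difference of 0.1 of a shared profile whose median difference was 1.43. Of these 384 probes 0 are listed and all 384 passed the limma threshold, so they raise the share of 6.25% given above. They also raise the share of 10.0% without overlap and push the member ranks down. The shared profile was highest among controls on control array 4, at 0.24, where Ddx6 and both Prpf8 spots were lowest among controls. Distances from it were 0.34 for Ddx6, 0.33 and 0.38 for the Prpf8 spots and 0.72 for Ago1, as root mean square differences in log2 over 8 arrays. This set was picked after its values were seen, and its part in the member differences was not tested.

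**Figure D3:**
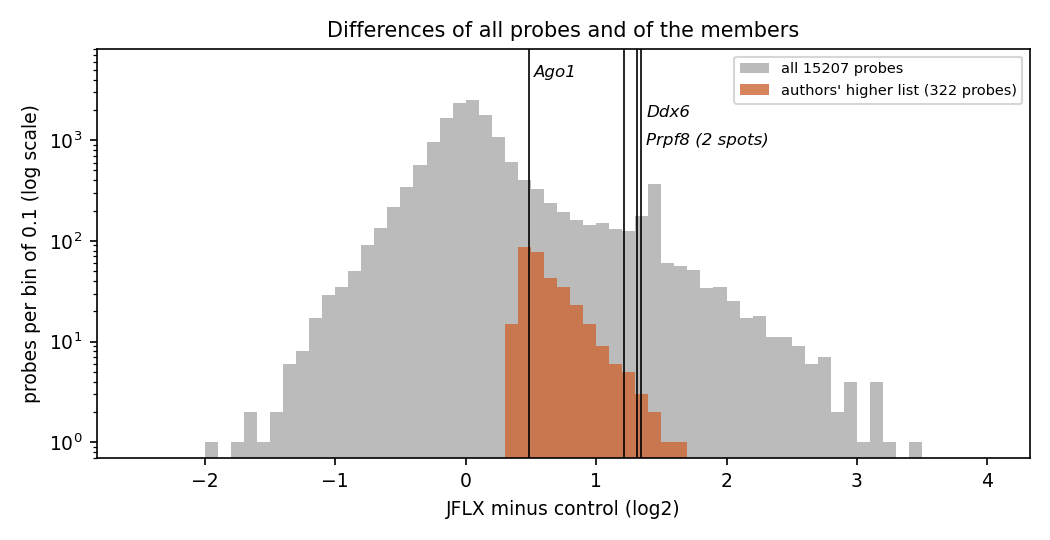
Number of probes per bin of 0.1 (log scale) against the difference JFLX minus control in log2, for all 15207 probes in grey and the 322 probes of the authors' higher list in orange, with vertical lines at the members. Ddx6 and Prpf8 stand at the upper end of the higher list and beside the narrow peak of grey probes between 1.4 and 1.5, and Ago1 at 0.48 stands in its bulk.

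Over the 8 arrays the values of Ddx6 and Prpf8 lay near each other, and those of Ago1 lay further from both. Likeness was measured as the root mean square difference of the log2 values over the 8 arrays, between the first listed probes of the 530 named genes. Between Ddx6 and Prpf8 it was 0.18, which made Prpf8 the second nearest of 529 genes to Ddx6 and Ddx6 the third nearest to Prpf8. Ago1 was at 0.67 from Ddx6 and 0.65 from Prpf8, and 276 genes were nearer to each of them. All of these genes were listed for a difference on the same arrays, so likeness is a description only. The distance is not centred within groups, so it largely repeats the size of the difference between the groups. Within the controls the 2 genes were not alike on each array. Control arrays 2 and 3 read -0.15 and 0.15 for Ddx6, but 0.13 and -0.13 for the first Prpf8 spot.

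The gene nearest to both Ddx6 and Prpf8 was Ppp2r2c, a regulatory subunit of protein phosphatase 2A, at 0.12 from the helicase and 0.14 from the spliceosome gene. Ppp2r2c had a difference of 1.40, with control arrays from -0.51 to 0.06 and JFLX arrays from 1.24 to 1.39. The kinase gene Stk32c was near both as well, at 0.20 from Ddx6 and 0.19 from Prpf8. The other genes nearest to Ddx6 were Vdac1, which encodes an outer membrane channel of mitochondria, and Metrn, a secreted factor of glia, both at 0.22. Prpf8 had Tollip, an adaptor protein of innate immune receptors, at 0.16 and the metallophosphoesterase gene Mpped1 at 0.20.

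Ago1 was closest to Pcdha4, a clustered protocadherin, at 0.16, then to the adhesion molecule gene Alcam, the SUMO protease gene Senp7 and the proteasome subunit gene Psmd11, each at 0.17, and to Bclaf1, a nuclear protein that binds RNA, at 0.18. Their differences ran from 0.41 for Psmd11 to 0.50 for Pcdha4, with no JFLX array above 0.76. The nearest genes thus share the size of the Ago1 difference and not its high value of 0.96 on JFLX array 3.

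Other genes of the 3 processes were taken from lists of silencing, decay and splicing genes. The authors listed 3.83% of the probes on the array, and how many list genes have a probe there is unknown here. Of 34 genes of RNA silencing 3 are listed, all with higher values and 2 of them past the limma threshold, beside 26.5% of all listed probes. Adar, which edits adenosines in double-stranded RNA, read 0.04, -0.09, 0.03 and -0.03 on the control arrays and 0.61, 0.40, 0.70 and 0.44 on the JFLX arrays. All JFLX arrays were above the controls, and Adar rose by 0.55 ± 0.10 (limma, adjusted p = 0.0171). Of the 15 other settings 7 did not call it, among them those without control replicate 3, without control replicate 4 and without JFLX replicate 1, and its adjusted p over them ran from 0.00750 to 0.280.

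Ddx17, an RNA helicase that works with the nuclear enzyme complex that cuts microRNA precursors, read -0.22, 0.04, 0.17 and -0.04 on the control arrays and 0.55, 0.34, 0.68 and 0.64 on the JFLX arrays. The groups did not overlap, and the difference was 0.57 ± 0.13 (limma, adjusted p = 0.0374). Only 3 of the 15 other settings called it, with adjusted p from 0.0335 to 0.707. It was lost without any one of control replicates 1, 2 and 4 or JFLX replicates 1, 3 and 4. The median over Ago1, Adar and Ddx17 was 0.55, beside 0.57 over the higher list, to which all 3 belong, and 0.04 over all probes. Their size is thus ordinary for that list. A name here means that the authors listed the gene as changed in this contrast, so the common direction is no independent evidence. Over the array, 5.89% of probes were called higher, a share that includes the 384 probes of the shared profile.

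**Figure D4:**
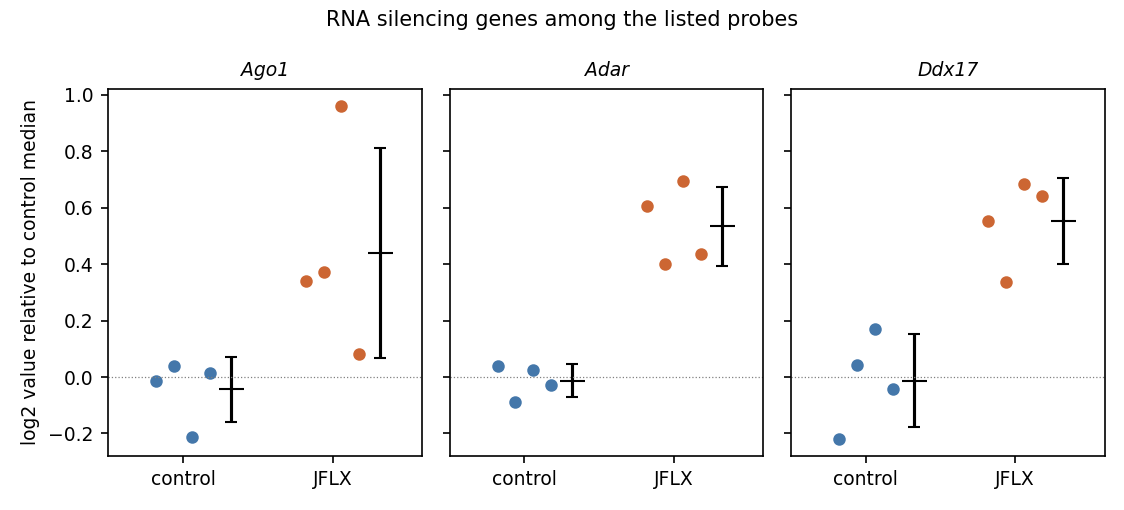
Normalized log2 values relative to the control median of the 3 listed genes of RNA silencing, with a point per array in replicate order and a bar for the mean ± SD of 4 arrays. Adar and Ddx17 have JFLX values from 0.34 to 0.70, a narrower band than that of Ago1.

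In messenger RNA decay 2 of 71 genes are listed, Ddx6 with higher and Btg4 with lower values. Btg4, an adaptor that recruits the deadenylase complex to messages, is best known from oocytes. It is spotted at 2 places with the same sequence. Its flag was set on 4 control and 0 JFLX arrays, so no fold is given. One spot passed (limma, adjusted p = 0.0282) and the other did not (adjusted p = 0.164), where 0.355% of all probes were called lower. Over 15 other settings the spots passed in 6 and 1. The first was lost without any one of control replicates 1, 2 and 4 or JFLX replicates 1 and 3. Of 91 splicing genes Prpf8 alone is listed. Only listed probes carry a name here, so the other members of these 3 lists were not analysed.

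Markers of cell types, from 8 short lists, gave 5 listed genes. They were 2 of 5 excitatory neuron, 1 of 5 astrocyte, 1 of 5 endothelial and 1 of 4 blood genes, where 3.83% of all probes are listed. A marker appears here only because the authors listed it as changed, so none of them stands for its cell type. Limma called 26.5% of the listed probes, and 0.355% of all probes as lower. The labelled tissue is cortex, and the excitatory neuron markers Camk2a and Neurod2 were detected on all 4 arrays of both groups, with differences of 0.56 ± 0.19 and -0.46 ± 0.15 (limma, adjusted p = 0.172 and 0.160). The astrocyte enzyme gene Glul fell by 0.51 ± 0.11 (adjusted p = 0.0362), and 5 of the 15 other settings called it. It was lost without any one array other than JFLX replicate 4. The endothelial marker Pecam1 stood at 0.68 ± 0.25 (adjusted p = 0.227). The platelet gene Ppbp had its flag set on 4 control but 0 JFLX arrays (limma, adjusted p = 0.0370), and was not called without any one of control replicates 1, 2 and 3 or JFLX replicates 1, 2 and 3. Markers of interneurons, oligodendrocytes, their precursors and microglia had 0 listed genes of 6, 5, 3 and 5. The part of cell composition in the member differences was not tested.

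Promoters of 2 members, Ago1 and Prpf8, are in the RefSeq table of GRCr8 and are shown since both genes were higher in JFLX, from 250 bases before to 50 after the start. Capitals mark matches, on either strand, to 5 motifs. They are the GC box, spelled GGGCGG, the CCAAT box, the TATA box, spelled TATAAA, the E-box, spelled CACGTG, and the cyclic AMP response element, spelled TGACGTCA. No match overlaps another in these windows.
Ago1 promoter, chr5:144041575-144041874, minus strand: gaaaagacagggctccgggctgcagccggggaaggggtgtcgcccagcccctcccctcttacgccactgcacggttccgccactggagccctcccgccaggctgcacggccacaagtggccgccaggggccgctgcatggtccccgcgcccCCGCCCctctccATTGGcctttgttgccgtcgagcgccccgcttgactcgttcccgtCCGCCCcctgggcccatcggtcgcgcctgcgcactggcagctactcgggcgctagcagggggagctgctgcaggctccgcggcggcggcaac
Prpf8 promoter, chr10:60829528-60829827, plus strand: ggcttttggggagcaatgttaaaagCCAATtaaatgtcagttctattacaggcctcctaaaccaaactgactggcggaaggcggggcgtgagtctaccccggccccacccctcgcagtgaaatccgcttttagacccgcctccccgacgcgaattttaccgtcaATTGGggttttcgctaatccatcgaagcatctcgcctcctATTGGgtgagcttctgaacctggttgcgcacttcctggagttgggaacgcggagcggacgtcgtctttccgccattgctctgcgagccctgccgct
Both windows hold CCAAT, 1 match in Ago1 and 3 in Prpf8, a motif found in 37.5% of the 33469 promoters of this length. GGGCGG matched at 2 places in Ago1 and 0 in Prpf8, against 33.1% of promoters with a match. The TATA box, the E-box and the cyclic AMP response element, found in 14.2%, 6.42% and 1.83% of promoters, were not in either window.

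The Ago1 window is rich in G and C, at 73.3%, and 4.57% of promoters reach that share; Prpf8 has 56.0%, beside a median of 51.7%. CpG pairs numbered 30 in the Ago1 and 23 in the Prpf8 window, against a median of 7. A match or a base composition describes these letters and was not tested against the expression values.

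The direction of the members was kept under each setting that was computed, and their size was not. Leaving out 1 array could not turn it, since the groups did not overlap at any member probe. The replicate block returns the same differences. The kept direction is therefore a description only. Quantile normalization gave the lowest value for Ddx6 and both Prpf8 spots, at 0.90, 0.97 and 0.79, and left 0 probes on the array called by limma, where 1298 had an unadjusted p under 0.05. For Ago1 the lowest value was 0.29, after centring the arrays on the 75th percentile, which shifts the median of all probes by -0.19.

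**Figure D5:**
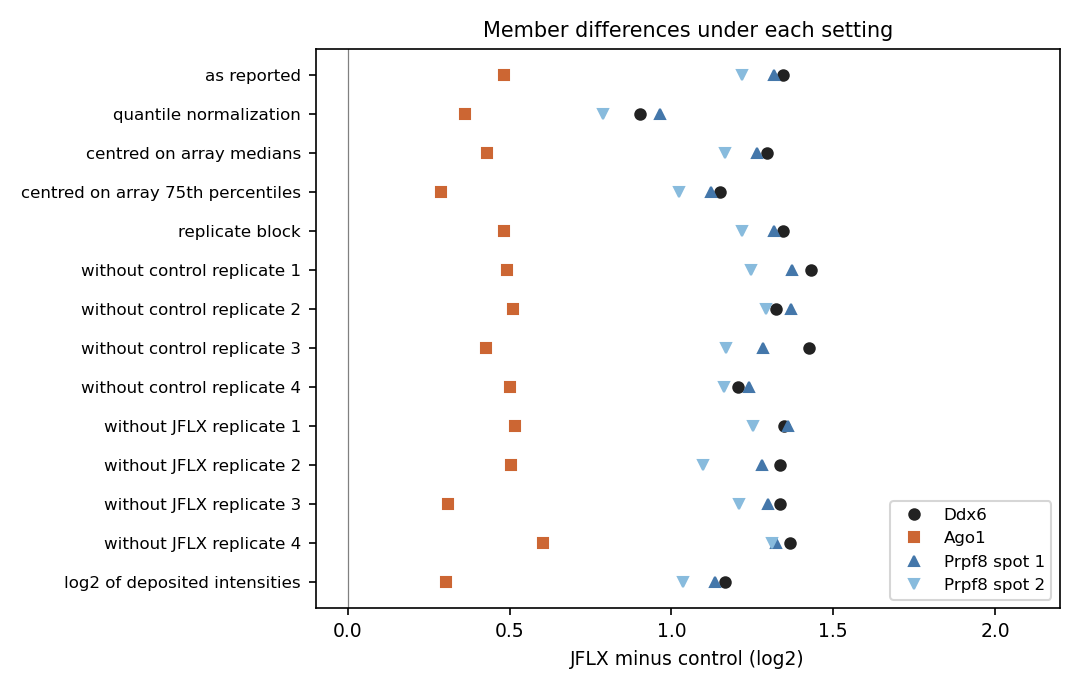
Difference JFLX minus control in log2 (horizontal axis) of the 4 member probes under each setting (rows), with a symbol per probe. All points lie right of 0, Ago1 between 0.29 and 0.60 and the others between 0.79 and 1.43.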

How the data were processed

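The deposited value table holds log2 values that the authors normalized between arrays by a method not given in the sources used here, and centred so that each probe's control median is 0. The lists of changed probes hold background-subtracted intensity, group means in log2, a p-value of an unnamed test and counts of detected flags, per the file headers and read-me sheet. Intensity columns were assigned to groups only, and 16 further columns of folds and flags per list were not used. All arrays were on 1 slide, control and JFLX arrays in separate position blocks, so position and treatment cannot be told apart.

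Differences were fitted with limma 3.58.1 in R 4.3.3 (lmFit, eBayes without trend) over 15207 probes with 0 missing values, adjusted by Benjamini-Hochberg, two-sided. The fit was tested on simulated data, in 10 draws with 200 changed probes each. It called 18.4% of 1.5-fold and 52.2% of 2-fold changes in these draws of independent normal values. The reported fit called 950 probes, and the adjustment depends on how many probes change, so these shares need not hold for it. A missing call is not evidence of no change. Tables and plots used Python 3.11.15, pandas 2.3.3, scipy 1.17.1 and matplotlib 3.10.9. Of the 582 listed probes 551 were named by gene ID through RefSeq (GRCr8). The named genes are the members, listed genes of 3 process lists and 8 marker lists, and the 5 nearest to each member. Members and lists were chosen with earlier results of these data known. For arrays their number limits the precision. Replicate numbers were not used as pairs in the reported fit, and whether they pair the samples is not known. Deviations of same-numbered arrays correlated at -0.04, 0.40, 0.12 and -0.28, and differently numbered arrays were not compared.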

Additional observations from a re-analysis of the deposited data

Results flagged for a closer look

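Dixon's test was applied to 46 groups of 4 arrays, those of the named genes, and 4 single values stood apart, where chance gives about 1 in 20, or 2.3. None belongs to Ddx6, Ago1 or Prpf8. For Stk32c, which was among the genes nearest to Ddx6 and Prpf8, the lowest JFLX array was replicate 4, at 1.08 against 1.43 and more (gap 0.840 of the range). That array was also lowest for Camk2a, at 0.085 against 0.76 to 0.88 (gap 0.853). Among the controls, Camk2a was highest on replicate 2, at 0.28 (gap 0.859), and Pecam1 lowest on replicate 4, at -0.79 (gap 0.830). No explanation was tested for these values.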

How the results depend on the processing

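Of 92 alternative values, 82 stayed close to the reported one, 5 differences moved by more than the pooled SD of the probe and 5 counts fell by more than 1.5 times. 0 differences turned, an outcome that leaving out 1 array or adding the replicate block could not have changed. Quantile normalization gave 0.90 for Ddx6, 0.97 and 0.79 for the Prpf8 spots, 0 of 3 members called and 0 probes called, against 950 as reported. It forces all arrays to the same distribution, and 1298 probes had an unadjusted p under 0.05 in limma. Calls split into 896 higher and 54 lower as reported, and into 682 and 221 with 75th percentile centring. With trend and robust the lower calls were 0. The first Prpf8 spot moved to 1.12 with 75th percentile centring and to 1.13 on the deposited intensities. Over 16 other settings Ddx6 and Prpf8 were called in 15 and Ago1 in 0. Calls over all probes ran from 0 with quantile normalization to 1160 with array quality weights. The members were chosen from this contrast on the same arrays, so their calls are a description and support nothing. The fit with a replicate block called 764 probes and 2 of 3 members. Leaving out each array gave 1.20 to 1.43 for Ddx6, 1.24 to 1.37 and 1.10 to 1.31 for the Prpf8 spots, 0.31 to 0.60 for Ago1, 780 to 907 probes called and 2 members called each time. With the distance over the 4 JFLX arrays, 3 of the 5 nearest genes were shared for Ddx6, 3 for Prpf8 and 1 for Ago1. A filter on low signal was not run, because the value table is centred and intensities were used here for listed probes only.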

Other observations

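The annotation columns of the files give the Ddx6 probe the terms of trehalase, a sugar-cleaving enzyme of the brush border, while its name and product fields give the RNA helicase. In the gene order of GRCr8 the protein-coding gene that follows Ddx6 is Treh, which encodes trehalase. The gene ID and the product field were followed here. The annotation of the Ago1 probe speaks of translation initiation, as the older name Eif2c1 does.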
